A study of Mus musculus with 12 samples.

Results

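The antioxidant, heat shock and unfolded protein genes were followed as a set of 37 genes in the brains of mice lacking presenilins. The genes were chosen by name: 18 antioxidant genes (Hmox1, Nqo1, Gclc, Gclm, Sod1, Sod2, Cat, Gpx1, Gpx4, Prdx1, Prdx2, Prdx6, Txn1, Txnrd1, Srxn1, Slc7a11, Gsr and Nfe2l2), 6 cytosolic chaperones, 7 endoplasmic reticulum chaperones and folding factors, and 6 regulators of the unfolded protein and integrated stress responses. They are 37 of the 37306 gene names on the array, each read from its brightest probe. All 37 had a probe, and all 37 were well above background on all 12 arrays, so no member was lost to the filter on dim probes. In the basal forebrain no member differed between genotypes beyond the test's threshold, and in cortex none did either. Between the brain regions, Trib3, Hspa1b, Atf4, Herpud1 and Txnrd1 passed in both genotypes, though another Herpud1 probe passed in neither. With the array slide as a term in the fit, only Trib3 of the 37 passed in Con. The slide effect there comes only from double knockout cortex, the group with arrays on both slides. A member that does not pass in that fit therefore says little.

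Presenilin is the subunit that gives gamma-secretase its cutting activity on membrane proteins such as Notch. The double knockout mice (DKO) carried ChatCre, PS1flox/flox and PS2-/-, so PS2 was absent from every cell and PS1 was to be deleted only where Cre is made under Chat, in cholinergic neurons. The control mice (Con) were without Cre and carried PS1flox/flox and PS2+/-. All mice therefore carried the floxed PS1 allele, and the controls had 1 working PS2 copy. There were 3 mice per genotype, 2 months old and labelled male, and each gave a basal forebrain array and a cortex array. Cholinergic cell bodies lie in the basal forebrain and project to cortex, and both samples were whole tissue. In such tissue, fewer cells of a type and less RNA per cell cannot be told apart.

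Cells meet oxidants through the transcription factor NRF2 (Nfe2l2), which binds antioxidant response elements near genes for glutathione synthesis, peroxide removal and thioredoxin recycling. Misfolded protein in the cytosol releases heat shock factor 1, which binds heat shock elements and raises Hsp70, Hsp90 and their cochaperones. Misfolded protein in the endoplasmic reticulum activates ATF6, IRE1 with XBP1, and PERK with ATF4, which raise resident chaperones, degradation factors and amino acid genes. The inducible Hsp70 genes respond quickly to heat and other acute stress, and in brain the immediate early genes respond to neuronal activity.

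The promoters of several members hold the elements named above. RefSeq promoter windows (GRCm38.p6, 250 bases before to 50 after the gene start) were matched for 30 of the 37 members and searched on both strands, beside 32851 windows in all. The heat shock element GAANNTTC was in Sod1, Hspa1a, Hspa1b and Hsph1, and in 7.86% of all windows. Its other form, TTCNNGAA, was in Hsph1, where the forms overlap, and in 8.52% of all. The antioxidant response core TGACNNNGC was in 10 of the 30 members and in 12.4% of all. The ER stress element (CCAAT, any 9 bases, CCACG) was in Hspa5, Hsp90b1 and Creld2, and in 0.119% of all. The amino acid response element TGATGNAA was in Slc7a11, Herpud1, Atf3, Trib3 and Chac1, and in 3.97% of all. The stretches below, given 5′ to 3′ on the gene's strand, are a hand-picked part, from genes whose levels are described in the results. Other such genes with an element, among them Trib3, Hsph1, Srxn1 and Txnrd1, are not printed. Capitals mark the element.
Hspa1a (chr17:34972227-34972286, minus strand, heat shock element): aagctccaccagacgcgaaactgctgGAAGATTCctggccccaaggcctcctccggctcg
Hspa1b (chr17:34959309-34959368, minus strand, heat shock element): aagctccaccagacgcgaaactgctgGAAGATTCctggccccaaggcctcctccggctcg
Hspa5 (chr2:34771990-34772059, plus strand, ER stress element): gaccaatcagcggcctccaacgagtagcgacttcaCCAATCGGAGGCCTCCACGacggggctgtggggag
Hsp90b1 (chr10:86705520-86705669, minus strand, ER stress element on each strand): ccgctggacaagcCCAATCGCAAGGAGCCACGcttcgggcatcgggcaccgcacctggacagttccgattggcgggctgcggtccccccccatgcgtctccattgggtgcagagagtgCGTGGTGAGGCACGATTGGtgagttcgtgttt
Creld2 (chr15:88819496-88819565, plus strand, ER stress element on the other strand): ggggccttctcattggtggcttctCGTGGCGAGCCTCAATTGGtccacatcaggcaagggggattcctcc
Slc7a11 (chr3:50443634-50443703, minus strand, amino acid response element on each strand): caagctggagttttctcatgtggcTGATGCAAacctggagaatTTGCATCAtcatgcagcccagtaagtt
Atf3 (chr1:191183414-191183463, minus strand, amino acid response element on the other strand): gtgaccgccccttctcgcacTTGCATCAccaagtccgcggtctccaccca
Herpud1 (chr8:94386299-94386348, plus strand, amino acid response element on the other strand): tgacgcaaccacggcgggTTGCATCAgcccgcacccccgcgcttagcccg
Prdx1 (chr4:116685444-116685493, plus strand, antioxidant response core on the other strand): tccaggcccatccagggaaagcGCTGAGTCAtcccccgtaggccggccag
The Hspa1a and Hspa1b stretches were the same at 60 of 60 bases, and the 250 bases before the start at 247 (98.8%). These genes are near-identical copies, so which copy a probe reads is uncertain, and they are not separate evidence. A match is a description of letters and was not tested as a binding site.

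Levels are log2 processed intensity minus the 75th percentile of the array, so 0 is that percentile, and levels of different genes are not compared. The share of probes well above background was 68.9% or more on every array, and arrays of a group correlated at 0.985 to 0.998 across genes. Psen2, the deleted gene, read 0.39, 0.25 and 0.42 in the basal forebrain of Con mice 1, 2 and 3, and -1.86, -1.44 and -1.25 in that of the DKO mice. It was 1.87 ± 0.16 (SE) lower in basal forebrain (adjusted p = 0.0334) and 2.12 ± 0.08 lower in cortex (adjusted p = 0.000327). Xist, a transcript of the inactive X chromosome, passed the background test in both regions of DKO mice 1 and 3 and on none of the other 8 arrays, which goes against the label male for those mice. Chat, the marker of cholinergic neurons, was 1.95 ± 0.29 higher in basal forebrain than in cortex in Con (adjusted p = 0.000264). Slide 1 held the 6 arrays of basal forebrain together with cortex from DKO mice 1 and 2. Slide 2 held cortex from DKO mouse 3 and from every Con mouse, and each slide was 1 scan. Of blood markers, the summed erythroid level (10 genes, 8 to 10 above background) was 7.12 to 7.32 in Con and 8.18 to 9.59 in DKO basal forebrain, and the leukocyte level (16 genes, 12 to 16 above background) 1.60 to 2.03 against 3.03 to 3.80. In cortex the erythroid level was 7.13 to 7.60 against 8.18 to 9.02 and the leukocyte level 1.77 to 2.03 against 3.19 to 4.40. The leukocyte list mixes neutrophil and other leukocyte genes, and not all rose. In the mean of both regions 12 of 15 tested were higher in DKO. The 3 lower were Cd3e at -0.17, Elane at -0.11 and Ptprc at -0.05. Endothelial markers (10 of 10 above background) were at 5.21 to 5.34 in Con and 5.41 to 5.87 in DKO basal forebrain, and at 4.92 to 5.14 and 5.34 to 5.74 in cortex. Cholinergic markers (9 of 9) were at 5.28 to 5.35 in Con and 5.30 to 5.60 in DKO basal forebrain, where they overlapped. In cortex they were at 2.25 to 2.41 in Con, at 1.38 and 1.79 in DKO mice 1 and 2 on slide 1, and at 2.00 in DKO mouse 3. These summed blood and endothelial levels moved with genotype in both regions, and the cholinergic level in cortex only. Single endothelial markers were 9 higher and 1 lower in DKO basal forebrain (median 0.25). In cortex they were 6 higher and 4 lower (median 0.06), so the sum there does not stand for the list. The part of all these levels in the members' values was not tested.

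**Figure D1:**
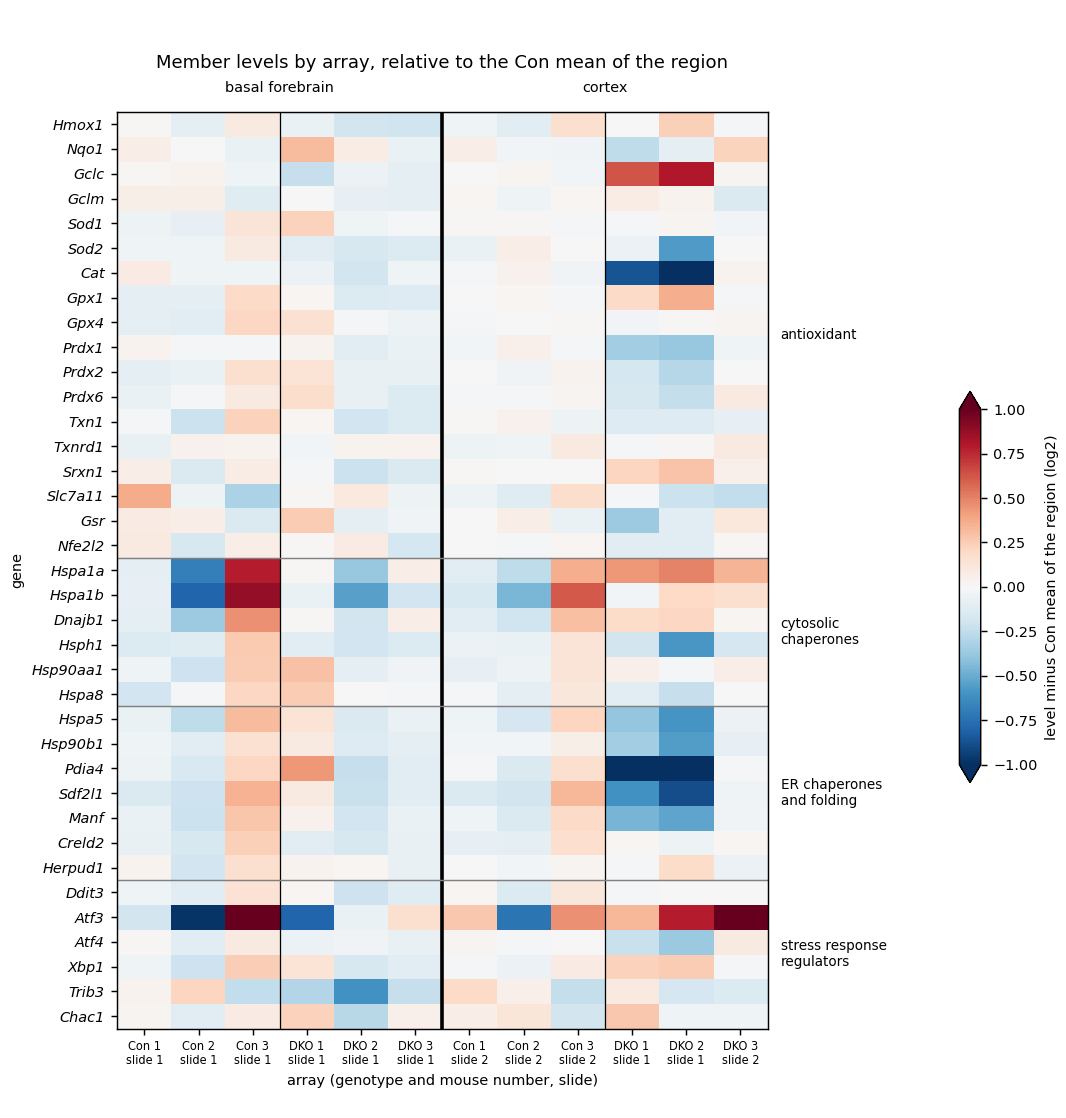
Level of each of the 37 genes (rows) on each of the 12 arrays (columns), as log2 difference from the mean of the 3 Con mice of the same region, with colour limits at -1 and 1. The strongest colours are in cortex for DKO mice 1 and 2, on slide 1, in the chaperone rows for Con mouse 3, and in the Atf3 row.

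The first comparison asked what the genotype does where the cholinergic cell bodies lie. In basal forebrain 0 of 37 members passed limma's test at an adjusted p under 0.05, beside 8 of 26102 genes in all (0.0306%). At an unadjusted p under 0.05 there was 1 member, Trib3, beside 4.39% of all genes. The groups did not overlap for 2 members (5.41%), beside 9.95% of all genes, and these were Sod2 and Gclc. Of the members 9 were higher and 28 lower in DKO, beside 13331 higher and 12771 lower over all genes. The member median was -0.04, against 0.00 over all genes. No adjusted p of a member was under 0.973.

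Trib3, a pseudokinase raised by ATF4 and CHOP, was at -0.56, -0.38 and -0.84 in Con basal forebrain and at -0.89, -1.20 and -0.82 in DKO. DKO mouse 2 was the lowest, and DKO mouse 3 lay within the Con range. The difference was -0.38 ± 0.16 (adjusted p = 0.973). Sod2, the mitochondrial superoxide dismutase, was at 3.09, 3.09 and 3.22 in Con and at 3.03, 2.97 and 3.00 in DKO. All 3 DKO mice were below all 3 Con mice, by 0.14 ± 0.07 on average (adjusted p = 0.973). Gclc, the catalytic subunit of the enzyme that starts glutathione synthesis, was at 2.72, 2.74 and 2.66 in Con and at 2.48, 2.65 and 2.62 in DKO, again without overlap and with a difference of -0.12 ± 0.07.

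Hmox1, the haem-degrading enzyme and a classic NRF2 target, was at -0.47, -0.58 and -0.39 in Con and at -0.55, -0.66 and -0.68 in DKO, and the groups overlapped. Srxn1, which repairs over-oxidised peroxiredoxins, was at 4.56, 4.35 and 4.57 in Con and at 4.48, 4.28 and 4.35 in DKO. Hsph1, an Hsp110 nucleotide exchange factor for Hsp70, was at 4.54, 4.56 and 4.94 in Con and at 4.57, 4.49 and 4.54 in DKO. The differences of these 3 genes were -0.15 ± 0.09, -0.12 ± 0.09 and -0.14 ± 0.12, within the spread between mice in each case.

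By role, the 18 antioxidant genes differed by -0.15 to 0.11 in basal forebrain, the cytosolic chaperones by -0.27 to 0.08, the endoplasmic reticulum group by -0.12 to 0.03 and the regulators by -0.38 to -0.01. The 95% interval of the difference lay within 2-fold either way for 35 of 37 members. The exceptions were Hspa1b, an inducible Hsp70, and Atf3, a stress-induced transcription factor, whose levels varied widely between mice. For 32 members it lay within 1.41-fold. Nfe2l2 itself, the gene for NRF2, differed by -0.02 ± 0.11 and Hspa5, the main Hsp70 of the endoplasmic reticulum, by -0.02 ± 0.15.

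**Figure D2:**
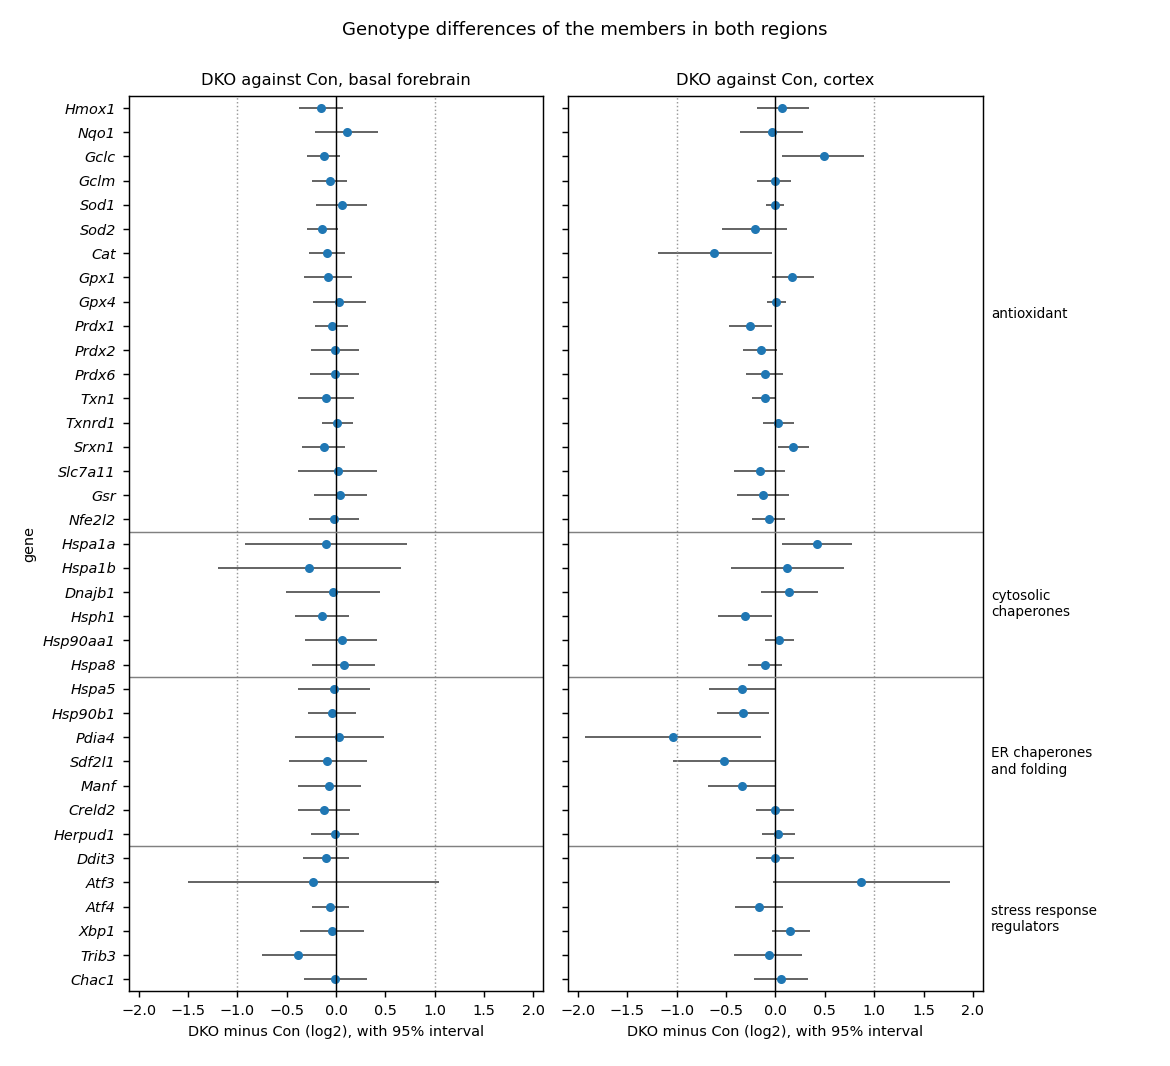
Difference DKO minus Con (log2, points) with its 95% interval (lines) for each of the 37 genes in basal forebrain and in cortex, 3 mice per genotype, with dotted lines at 2-fold. No gene passed the adjusted threshold in either panel, and Pdia4 in cortex had the largest difference, at -1.04.

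The second comparison was the same in cortex, which these neurons innervate. There 0 of 37 members passed, beside 3 of 25798 genes (0.0116%). At an unadjusted p under 0.05 there were 10 members, beside 18.9% of all genes. The groups did not overlap for 5 members (13.5%), beside 22.4% of all genes. The member median was -0.04, near the -0.05 over all genes, and the smallest adjusted p of a member was 0.261. The 10 members were Gclc, Srxn1, Prdx1, Cat, Hspa1a, Hsph1, Hspa5, Hsp90b1, Pdia4 and Manf.

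Of the endoplasmic reticulum group, 6 of 7 had a lower mean in DKO cortex, beside 15091 of 25798 genes in all. Pdia4, a disulfide isomerase, was at 0.74, 0.61 and 0.91 in Con and at -0.60, -0.97 and 0.73 in DKO, so DKO mouse 3 lay within the Con range and mice 1 and 2 far below it. The difference was -1.04 ± 0.38 (adjusted p = 0.261). Hsp90b1, the Hsp90 of the endoplasmic reticulum, was at 5.41, 5.41 and 5.50 in Con and at 5.09, 4.88 and 5.36 in DKO, a difference of -0.33 ± 0.11. The groups did not overlap, but DKO mouse 3 was close to the lowest Con mice.

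The antioxidant genes with the smallest p showed the same arrangement of mice. Gclc was at 1.91, 1.94 and 1.88 in Con cortex and at 2.54, 2.71 and 1.94 in DKO, a difference of 0.49 ± 0.18. Prdx1, a peroxiredoxin, was at 5.31, 5.39 and 5.32 in Con and at 4.99, 4.96 and 5.30 in DKO, a difference of -0.26 ± 0.09. Srxn1 was at 4.36, 4.34 and 4.34 in Con and at 4.56, 4.63 and 4.40 in DKO, a difference of 0.18 ± 0.07. Cat, the catalase of peroxisomes, was at 1.82, 1.88 and 1.80 in Con and at 0.97, 0.82 and 1.87 in DKO, a difference of -0.62 ± 0.25. In each of these genes the value of DKO mouse 3 was nearer to the Con mean than to those of DKO mice 1 and 2. Hspa1a, the other inducible Hsp70, was at 1.51, 1.37 and 1.99 in Con and at 2.06, 2.12 and 1.96 in DKO, a difference of 0.42 ± 0.15, and there all 3 DKO mice were above Con mice 1 and 2 while Con mouse 3 lay among them. The adjusted p of these genes was 0.261 in each.

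For part of the members the cortex values divided by slide. On slide 2, DKO mouse 3 differed from the Con mean by -0.03 in Pdia4, 0.04 in Cat, 0.03 in Gclc and -0.08 in Hsp90b1. It stood away from Con in other members on the same slide, by 1.50 in Atf3, 0.34 in Hspa1a, -0.25 in Slc7a11 and 0.22 in Nqo1, a quinone reductase and NRF2 target. Atf3 was the largest of these differences. It was at -4.00, -5.00 and -3.82 in Con cortex and at -3.94, -3.49 and -2.77 in DKO. For Cat the 8 arrays of slide 1, from both genotypes and both regions, read 0.67 to 0.97 and the 4 arrays of slide 2 read 1.80 to 1.88. Gclc read 2.48 to 2.74 on slide 1 and 1.88 to 1.94 on slide 2, and Pdia4 -0.97 to -0.21 and 0.61 to 0.91. All slide 1 arrays lay apart from all slide 2 arrays for 9 members (24.3%): Gclc, Cat, Gpx1, Prdx1, Gsr, Hsp90b1, Pdia4, Sdf2l1 and Atf4. Over all genes tested in cortex it was 29.8%, so the slides lay apart no more often among the members than among all genes. DKO mouse 3 was nearer to Con than to DKO mice 1 and 2 in 30 of 37 members (81.1%), beside 19337 of 25798 genes in all. The median size of the difference from Con was 0.20 for DKO mice 1 and 2 and 0.05 for DKO mouse 3, against 0.23 and 0.09 over all genes.

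With slide as a term 0 members passed, beside 4 of 25798 genes, and Atf3 had the smallest unadjusted p, at 1.50 ± 0.44 (adjusted p = 0.557 in limma). There, as within slide 2, the genotype difference is that of DKO mouse 3 alone from Con, so a member that does not pass says little. Without DKO mouse 3, 15 of 37 members and 9759 of 26082 genes passed in cortex, with Con all on slide 2 and DKO all on slide 1, so genotype and slide cannot be told apart there. Those 15 included Pdia4 at -1.54 (adjusted p = 0.000779) and Gclc at 0.71 (adjusted p = 0.000912). Without DKO mice 1 and 3, the mice whose Xist went against the label, 1 DKO mouse on slide 1 is left, and the Con mice alone supply the spread, which the lone mouse is assumed to share. There 0 members passed in basal forebrain, beside 0 of 26893 genes, and 16 in cortex, beside 7742 of 26289 genes.

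**Figure D3:**
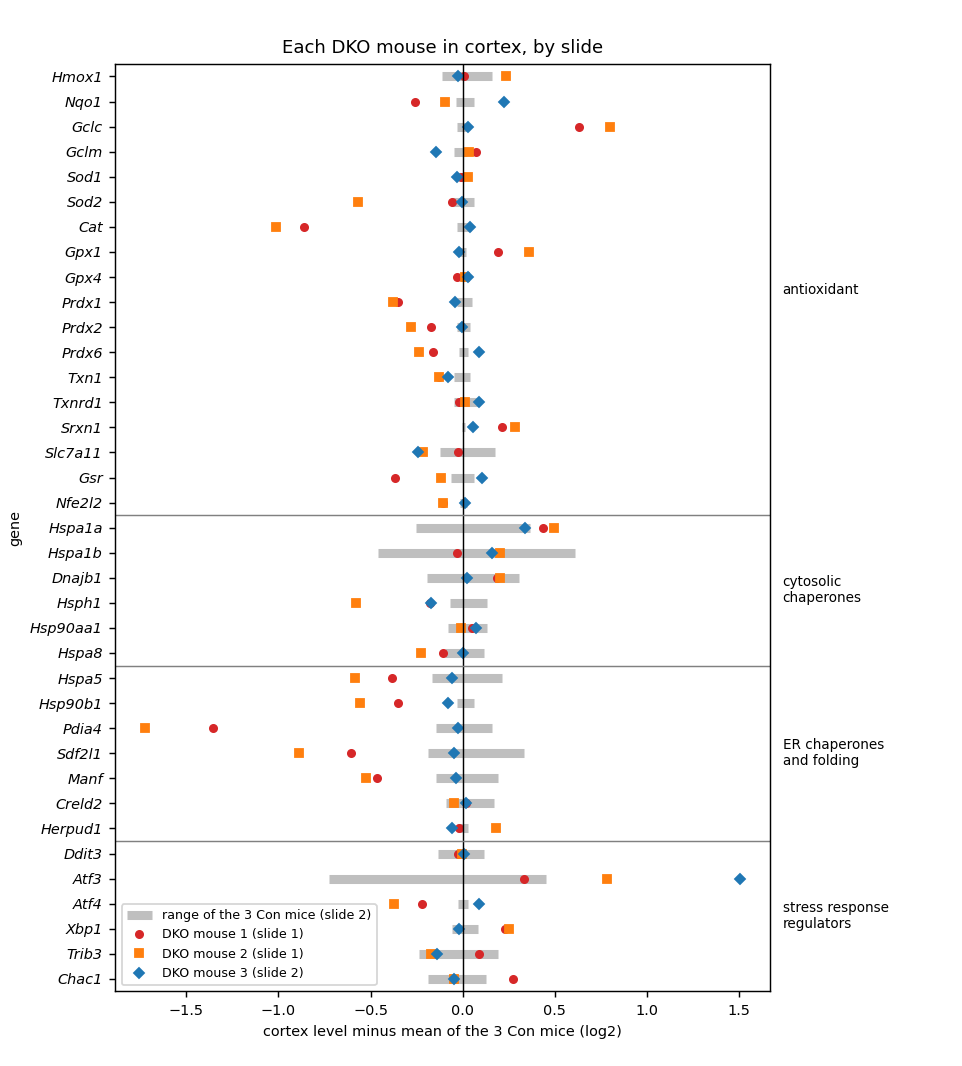
Cortex level of each DKO mouse minus the mean of the 3 Con mice (log2) for the 37 genes, with the range of the Con mice in grey, all of which were on slide 2. DKO mice 1 and 2 (slide 1) stand away from the Con range in Gclc, Cat, Pdia4 and Sdf2l1, while DKO mouse 3 (slide 2) lies at 0.03, 0.04, -0.03 and -0.05.

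Averaging both arrays of a mouse gave 0 of 37 members past the adjusted threshold, beside 42 of 26959 genes (0.156%). At an unadjusted p under 0.05 there were 5 members, beside 10.7% of all genes: Cat at -0.35 ± 0.14 (adjusted p = 0.446), Prdx1 at -0.15 ± 0.06, Pdia4 at -0.50 ± 0.21, Hsph1 at -0.23 ± 0.10 and Hsp90b1 at -0.19 ± 0.08. Sod2 followed at -0.17 ± 0.08 (adjusted p = 0.489). The cortex values of Cat, Prdx1, Pdia4 and Hsp90b1 are those given above. In basal forebrain Cat was at 0.93, 0.81 and 0.81 in Con and at 0.79, 0.67 and 0.81 in DKO, and Pdia4 at -0.70, -0.80 and -0.44 against -0.21, -0.88 and -0.75. Prdx1 was at 5.10, 5.04 and 5.05 in Con basal forebrain and between 4.96 and 5.10 in DKO, and Hsp90b1 at 5.09, 5.03 and 5.29 against 5.23, 5.01 and 5.05. The basal forebrain groups of these 4 genes overlapped, with differences of -0.09 in Cat, 0.03 in Pdia4, -0.04 in Prdx1 and -0.04 in Hsp90b1, far smaller than in cortex. Hsph1 was at 4.84, 4.83 and 5.03 in Con cortex and at 4.72, 4.32 and 4.73 in DKO, without overlap. Sod2 was at 3.03, 3.16 and 3.10 in Con cortex and at 3.04, 2.53 and 3.09 in DKO, where DKO mouse 2 alone lay below the Con range. The interval lay within 2-fold for 36 of 37 members, Atf3 being the exception. Without DKO mouse 3, Cat passed and no other member did, beside 177 of 27058 genes.

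The interaction asked whether the genotype difference was unlike in the regions. It passed for 0 of 37 members and for 0 of 26959 genes (0%). At an unadjusted p under 0.05 there were 3 members, beside 8.36% of all genes: Gclc at -0.61 ± 0.21, Srxn1 at -0.31 ± 0.12 and Pdia4 at 1.07 ± 0.48, each with an adjusted p of 0.562. Without DKO mouse 3 it passed for 3 of 37 members, Gclc, Cat and Pdia4, beside 1559 of 27058 genes, with the slides divided as above.

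Other genes of the same pathways gave 0 passing genes in basal forebrain, in cortex or in the mean of both. The lists held 28 NRF2 pathway and glutathione genes, 18 peroxidase, thioredoxin and metallothionein genes, and 25 heat shock factor targets and chaperones. The others held 27 unfolded protein response sensors and ATF6 or XBP1 targets, and 24 integrated stress response genes that include ATF4 targets. At an unadjusted p under 0.05 in basal forebrain, where 4.39% of all genes stood, there was 1 gene each in the first 3 lists and 0 in the others: Maff, a small MAF partner of NRF2, at 0.59 ± 0.25, Mt2, a metallothionein, at 0.28 ± 0.11, and Dnajb5, an Hsp40, at -0.39 ± 0.14. In cortex 18.9% of all genes had an unadjusted p under 0.05, and the lists gave 9 of 28, 3 of 18, 6 of 25, 7 of 27 and 2 of 24 in the order above. Over all genes, 1760 of the 4863 at that threshold were higher in DKO and 3103 lower. Of the 9 NRF2 pathway genes 7 were higher and 2 lower, and among the higher were Keap1, which holds NRF2 in the cytosol, at 0.61 ± 0.13, and the exporter Abcc1 at 0.50 ± 0.14 (adjusted p = 0.261 for both). Mt1 stood at 0.36 ± 0.05 in cortex (adjusted p = 0.104), the smallest adjusted p in these lists. Of the 7 unfolded protein genes 6 were lower, such as Dnajb11 at -0.27 ± 0.09, Dnajc3 at -0.31 ± 0.11 and Pdia3 at -0.31 ± 0.11. Of the 6 heat shock genes 5 were lower, led by Cacybp at -0.40 ± 0.09, Dnajb5 at -0.51 ± 0.16 and the small heat shock protein gene Cryab at -0.68 ± 0.25. The integrated stress response genes were Eif2s1 at -0.27 ± 0.09 and Ddit4 at 0.49 ± 0.18. These cortex values come from the same arrays and slides as the members'.

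Chaperone levels differed between mice of the same genotype, and in Con the same mouse was highest in both regions for most of these genes. Con mouse 3 was the highest Con mouse in basal forebrain and in cortex for 16 of the 19 chaperone and unfolded protein genes (84.2%), the exceptions being Atf4, Trib3 and Chac1. The same held for 4 of 18 antioxidant genes (22.2%) and for 24.1% of all genes above background on every array. Con mouse 2 was the lowest for 16 of 19 in each region (84.2%), beside 39.1% of all genes in basal forebrain and 33.7% in cortex. In DKO the order was not the same in both regions. Mouse 1 was the highest for 13 of 19 in basal forebrain (68.4%, beside 51.6% of all genes) but for 2 in cortex, where mouse 3, the one on slide 2, was the highest for 12 (63.2%, beside 45.8%). DKO mouse 2 was the lowest for 15 of 19 in basal forebrain (78.9%, beside 34.4%) and for 12 in cortex (63.2%, beside 34.3%). Hspa1a was at 1.35, 0.76 and 2.23 in Con basal forebrain, so mouse 3 stood 1.18 above the mean of the other two, and 0.55 above in cortex. Hspa1b was at -1.16, -1.87 and -0.20 in basal forebrain and at -0.09, -0.40 and 0.67 in cortex, and Con mouse 3 stood 1.31 and 0.91 above the others. Dnajb1, the Hsp40 partner of Hsp70, was at 4.55, 4.29 and 5.11 in basal forebrain and at 4.63, 4.54 and 5.04 in cortex.

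The same order of Con mice was seen in the endoplasmic reticulum genes. Hspa5 was at 4.82, 4.63 and 5.20 in Con basal forebrain and at 5.22, 5.10 and 5.48 in cortex. Sdf2l1, a cofactor of the Hspa5 protein, stood 0.52 and 0.50 higher in Con mouse 3 than in the others, Manf, a secreted stress-induced factor, 0.42 and 0.29, and Creld2, a disulfide isomerase, 0.36 and 0.26. Xbp1, whose spliced product drives chaperone genes, stood 0.37 and 0.12 higher. Trib3 went the other way, 0.37 lower in basal forebrain and 0.36 lower in cortex. The summed level of 10 immediate early genes, all above background on every array, was 6.53, 5.65 and 6.79 in Con basal forebrain and 7.36, 6.73 and 7.54 in Con cortex, highest in mouse 3 and lowest in mouse 2. In DKO it was 5.96, 6.04 and 6.70 in basal forebrain and 7.13, 7.10 and 7.87 in cortex. Its part in the chaperone levels was not tested. The Con arrays of a region share a slide, so the order within Con does not cross slides. It was noticed in these data, over 3 mice, and carries no test. Without Con mouse 3, 0 members passed in any genotype comparison. Over all genes it was 0 of 26490 in basal forebrain, 1 of 26163 in cortex and 22 of 27404 in the mean of both.

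**Figure D4:**
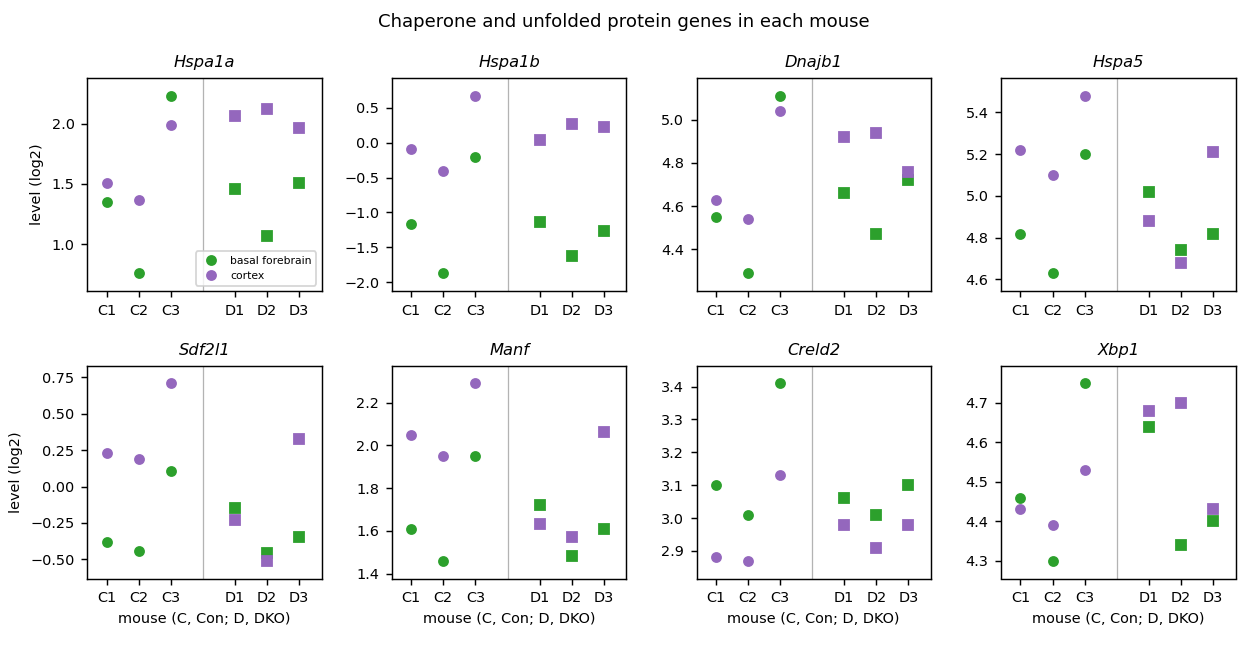
Level (log2) of 8 chaperone and unfolded protein genes in each mouse, with Con as circles and DKO as squares, basal forebrain in green and cortex in purple. Con mouse 3 (C3) is the highest Con mouse in both regions for each gene shown, and Hspa1b is lower in basal forebrain than in cortex in every mouse.

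The region comparisons gave the largest differences in the set. In Con 17 of 37 members passed, beside 49.0% of all genes. Of these 5 were higher in basal forebrain, where 18.5% of all genes were, and 12 lower, where 30.5% were. In DKO 6 of 37 passed, beside 39.9% of all genes, with 3 higher, beside 19.3%, and 3 lower, beside 20.6%. The share of members passing was 45.9% in Con and 16.2% in DKO, in each case below that of all genes. By direction, only the 12 lower members in Con were a slightly larger share than over all genes. In Con all basal forebrain arrays were on slide 1 and all cortex arrays on slide 2, so region and slide cannot be told apart. In DKO 2 cortex arrays shared slide 1 with the basal forebrain arrays. Choroid plexus markers (10 genes, 8 to 10 above background) also moved with region, at 3.23 to 3.48 in Con and 3.28 to 3.50 in DKO basal forebrain against 5.79 to 6.73 and 6.51 to 6.93 in cortex, and their part in the members' values was not tested. Cholinergic markers were higher in basal forebrain for 9 of 9 genes in both genotypes, all passing, by a median of 3.12 in Con and 3.85 in DKO. The summed level of neuron markers (10 of 10) ran from 8.74 to 8.87 in basal forebrain and from 8.75 to 8.84 in cortex, but single markers moved both ways, 3 higher and 5 lower past the threshold in Con and 3 higher and 4 lower in DKO. The part of both lists in the members' values was not tested. The median over all genes was -0.09 in Con and -0.04 in DKO, and centring arrays on their median moved it to -0.21 and -0.32. The split of passing members followed the scaling. In Con 5 higher and 12 lower became 3 and 10 with median centring and 8 and 6 with quantile normalization. In DKO 3 and 3 became 1 and 12, and 7 and 2. Of all passing genes in Con, 37.7% were higher in basal forebrain, 27.3% with median centring and 43.2% with quantile normalization. In DKO those shares were 48.3%, 22.7% and 46.9%. Median centring gave 11685 of 26592 genes passing in Con and 13097 of 25916 in DKO, and quantile normalization 13602 and 10976.

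Trib3 was the member most raised in basal forebrain. It read -2.09, -2.23 and -2.52 in Con cortex and -2.19, -2.45 and -2.42 in DKO cortex, below every basal forebrain array. It was 1.69 ± 0.16 higher in basal forebrain in Con (3.22-fold, adjusted p = 8.9e-06) and 1.38 ± 0.16 higher in DKO (2.61-fold, adjusted p = 3.91e-05). Within slide 1 the DKO difference was 1.35. Trib3 passed in both genotypes under every alternative run, and with slide as a term it was the only member to pass in Con, at 1.58 ± 0.29 (adjusted p = 0.00628). Its probe lies at chr2:152163161-152163220 (mm9).

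Hspa1b, in contrast, was higher in cortex. In DKO it was at -1.14, -1.62 and -1.27 in basal forebrain and at 0.03, 0.26 and 0.22 in cortex, without overlap, a fall of 1.52 ± 0.35 (adjusted p = 0.00545), and within slide 1 the difference was -1.49. In Con it was 1.13 ± 0.35 lower in basal forebrain (adjusted p = 0.0202), lower in each mouse although the groups overlapped. With the mouse as a block the SE was 0.16 (adjusted p = 0.000814), where region and slide still cannot be told apart. With slide as a term Hspa1b was lower by 1.06 ± 0.68 (adjusted p = 0.39), which did not pass. Its near-identical copy Hspa1a was 0.70 ± 0.29 lower in DKO basal forebrain, which did not pass (adjusted p = 0.0707) but did with the mouse as a block (adjusted p = 0.00931). In Con Hspa1a differed by -0.18 ± 0.29. Immediate early genes were also higher in cortex, by the levels given above for each mouse, and their part here was not tested.

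Atf4, the transcription factor translated when eIF2alpha is phosphorylated, was at 5.33, 5.21 and 5.41 in Con basal forebrain and at 5.93, 5.88 and 5.90 in Con cortex. It was lower in basal forebrain by 0.58 ± 0.10 (adjusted p = 0.000645). Atf4 is among the members whose slides lay apart, and with slide as a term the Con difference was -0.20 ± 0.12 (adjusted p = 0.335). In DKO it was at 5.26, 5.28 and 5.24 in basal forebrain and at 5.68, 5.53 and 5.99 in cortex, and was lower in basal forebrain, where it fell by 0.47 ± 0.10 (adjusted p = 0.00291), with -0.34 within slide 1. Trib3, a target of ATF4, was higher in the region where Atf4 RNA was lower. Herpud1, part of endoplasmic reticulum degradation, was at 3.12, 3.10 and 3.01 in DKO basal forebrain and at 3.34, 3.54 and 3.30 in DKO cortex. The groups did not overlap, and the level was 0.32 ± 0.09 lower in basal forebrain (adjusted p = 0.0164), with -0.36 within slide 1. In Con it was 0.27 ± 0.09 lower (adjusted p = 0.0273), which did not pass with slide as a term (adjusted p = 0.133). Another Herpud1 probe differed by -0.09 in Con and -0.18 in DKO, without passing in limma over all probes (adjusted p = 0.572 and 0.297). With quantile normalization, or with the mean of a gene's probes, Herpud1 passed in neither genotype.

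Among antioxidant genes, Slc7a11, the cystine importer, was at 0.02, 0.11 and -0.04 in DKO basal forebrain and at -0.36, -0.55 and -0.58 in DKO cortex, higher by 0.53 ± 0.15 (adjusted p = 0.016) and by 0.48 within slide 1. In Con it was at 0.38, -0.04 and -0.31 in basal forebrain and at -0.39, -0.46 and -0.16 in cortex, where the groups overlapped. Other Slc7a11 probes above background gave 0.80 and 0.30 in DKO (adjusted p = 0.0494 and 0.167 in limma over all probes). In Con those probes gave 0.25 and -0.03, without passing. Txnrd1, the cytosolic thioredoxin reductase, was at 2.59, 2.71 and 2.70 in Con basal forebrain and at 2.36, 2.37 and 2.50 in Con cortex. In DKO it was at 2.64, 2.70 and 2.70 against 2.39, 2.42 and 2.50, and neither genotype's groups overlapped. It was higher in basal forebrain by 0.26 ± 0.06 in Con (adjusted p = 0.00674) and by 0.24 ± 0.06 in DKO (adjusted p = 0.011), with 0.27 within slide 1. With slide as a term its Con difference did not pass (adjusted p = 0.0595). With median centring its DKO difference was -0.04, so its direction there rests on the scaling.

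Several other region differences were smaller in DKO within slide 1 than in Con, and some had the other sign. No Con cortex array was on slide 1, so each value within slide 1 is from DKO. Genotype and slide therefore change together between these values and those of Con. Pdia4 was 1.40 ± 0.34 lower in Con basal forebrain (adjusted p = 0.00539), while DKO basal forebrain and cortex on slide 1 differed by 0.17 and overlapped. Cat was 0.99 ± 0.20 lower in Con (adjusted p = 0.00222), against -0.13 within slide 1, where the groups still did not overlap. Gclc was 0.79 ± 0.15 higher in Con (adjusted p = 0.00126), against -0.04 within slide 1. Sdf2l1 was at -0.38, -0.44 and 0.11 in Con basal forebrain and at 0.23, 0.19 and 0.71 in Con cortex, lower by 0.62 ± 0.22 (adjusted p = 0.0335), against 0.05 within slide 1. Gpx1, a glutathione peroxidase, was at 4.33, 4.33 and 4.62 in Con basal forebrain and at 4.06, 4.08 and 4.04 in Con cortex, higher by 0.36 ± 0.10 (adjusted p = 0.0121), against 0.01 within slide 1. In both genes the Con groups did not overlap. Atf3 was 1.50 ± 0.51 higher in Con basal forebrain (adjusted p = 0.0282), at -2.95, -3.74 and -1.60 against -4.00, -5.00 and -3.82, and 0.72 higher within slide 1 with the groups overlapping. Gpx4, which reduces lipid peroxides, and Txn1, the cytosolic thioredoxin, had similar sizes within slide 1. They were lower by 0.25 ± 0.09 (adjusted p = 0.0335) and by 0.26 ± 0.10 (adjusted p = 0.0456) in Con, where the Txn1 groups overlapped. In DKO within slide 1 they stood at -0.21 and -0.23 without overlap, and did not pass (adjusted p = 0.116 and 0.0709). Their Con differences with slide as a term were -0.21 ± 0.16 and -0.20 ± 0.18, which did not pass (adjusted p = 0.489 and 0.552). With slide as a term 1 member passed in Con in place of 17, while over all genes the number went from 13025 to 2884 of 26592. The slide effect in that fit comes only from DKO cortex, mouse 3 against mice 1 and 2, and is carried over to Con. A member that does not pass in Con there says little. In DKO the same 6 members passed, and the number over all genes went from 10337 to 9796 of 25916.

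**Figure D5:**
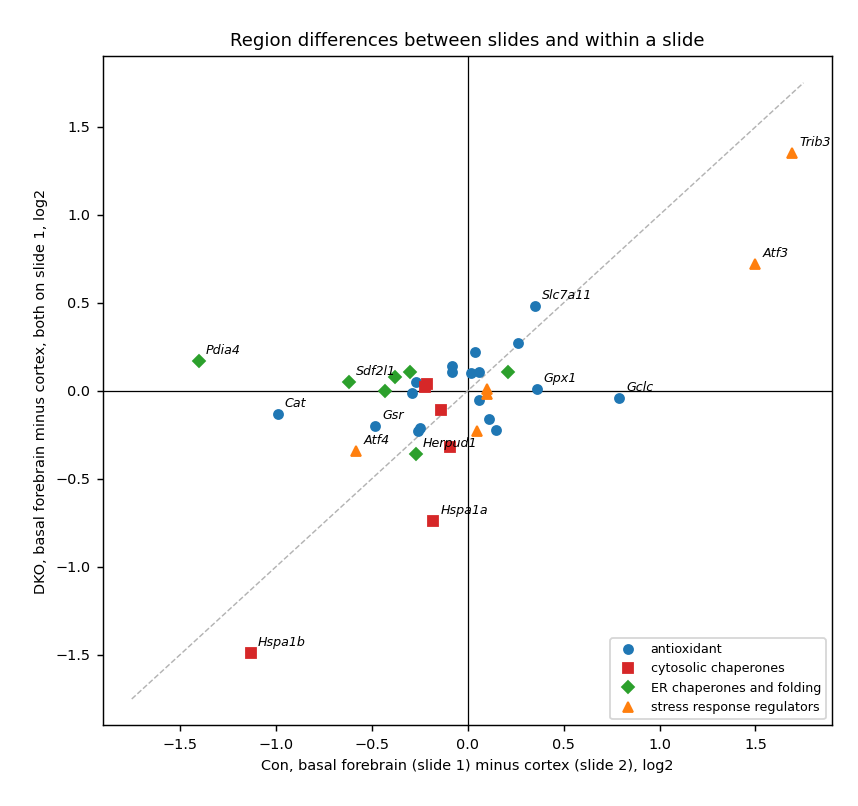
Basal forebrain minus cortex (log2) for the 37 genes, with Con (3 slide 1 against 3 slide 2 arrays) on the horizontal axis and DKO within slide 1 (3 against 2 arrays) on the vertical axis, and a dashed line where both are equal. Trib3 and Hspa1b lie near the line, at 1.69 and 1.35 and at -1.13 and -1.49, while Pdia4, Cat and Gclc lie near 0 on the vertical axis.

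With the mouse as a block, 17 members passed in Con and 7 in DKO, beside 13155 of 26592 and 10397 of 25916 genes. In Con 15 of the 17 were the same, with Gpx4 and Txn1 replaced by Hspa5 (adjusted p = 0.0175) and Creld2 (adjusted p = 0.0246). Leaving out Con mouse 1 left 8 members passing in Con, and leaving out Con mouse 2 left 9, while over all genes the 13025 became 6866 and 8306. In DKO, leaving out mouse 2 left 2 members, Atf4 and Trib3, leaving out mouse 3 left 4, and leaving out Con mouse 3, which enters through the shared spread, gave 10. Over all genes these settings gave 6405, 7190 and 10664 in place of 10337. Without DKO mice 1 and 3, 14 members passed in Con and 2 in DKO, beside 13569 and 3556 genes. The DKO comparison is then 1 array against 1 array of a single mouse, with the spread taken from Con alone.

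Some members have other probes, examined after the values of the main probes were seen. The cortex genotype differences of Hspa5 were -0.34, -0.26 and -0.33 over 3 probes and those of Manf -0.34 and -0.41. Hsph1 gave -0.31 and -0.41 with another probe at 0.00, and Prdx1 -0.26, -0.24 and -0.32 with a probe at 0.00. The other probe of Sod1, the cytosolic superoxide dismutase, was 1.48 higher in Con basal forebrain than in cortex, where the probe used gave 0.06. Slc7a11 gave 0.02, 0.72 and -0.26 for the basal forebrain genotype difference over 3 probes. Probes of a gene can therefore disagree, and which transcripts each reads was not examined.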

How the data were processed

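The 12 arrays (6 mice, 2 regions) were of Agilent's SurePrint G3 mouse design, with 1 colour. The authors' deposited processed intensity per spot came, per the file headers, from Agilent Feature Extraction 10.7.1.1 (protocol GE1_107_Sep09), with probe positions in mm9. The deposited series table also holds the authors' normalized log2 values, used as an alternative. Its 12 flag columns were not used.

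Unflagged spots of a probe were averaged. The 75th percentile of each array was subtracted from log2 intensity, and the brightest probe stood for its gene. Symbols came from a RefSeq table for 32972 of 56568 probes, and the rest kept the file's name. No spot was saturated (0). A gene was tested where its probe was well above background on all 3 arrays of a group. Differences were tested with limma 3.58.1 (lmFit, eBayes with trend) in R 4.3.3, adjusted over all genes by Benjamini-Hochberg at a threshold of 0.05. Genotype was fitted within each region and on mouse means, and region and interaction in a single fit of 12 arrays. The scripts were tested on simulated data.

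Alternatives were quantile normalization, median centring, normexp (offset 50), the authors' values, filters, mean probes, no variance trend, slide or replicate as a block, all arrays in a fit, and leaving out each mouse. The number of mice, 3 per genotype, limits precision. Region pairs come from the same mouse by the titles, and deviations from group means correlated across genes at 0.21, 0.31 and 0.39 in Con and at -0.01, 0.15 and -0.09 in DKO. Across genotypes mice share only a number.

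Every member is accounted for by role. Values by mouse are given for the 6 members of smallest p in each genotype comparison, and, in each region comparison, for up to 5 passing members with the largest positive and up to 5 with the largest negative difference. Of each related list up to 3 genes of smallest p are named. Genes named in the order of Con mice, the slide pattern and the probe checks were chosen after their values were seen. The members and lists were chosen with earlier results of these data known.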

Additional observations from a re-analysis of the deposited data

How the results depend on the processing

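Members passing in the basal forebrain genotype comparison stayed at 0 under all alternatives run. In cortex the number was 0 to 15 when each mouse was left out, 15 without DKO mouse 3, and 16 without DKO mice 1 and 3, where 1 DKO mouse is left and is assumed to vary like Con. In the mean of both regions it was 0 to 1, and in the interaction 0 to 3, both highest without DKO mouse 3. For the region difference in Con it was 17, 8 to 17 when each mouse was left out, and 1 with slide as a term. In DKO it was 6, 2 to 10 when each mouse was left out, 13 with median centring and 2 without DKO mice 1 and 3. With slide as a term the Cat difference in the mean of both regions was 0.00 in place of -0.35. In Con the region differences of Pdia4 and Sdf2l1 were then 0.11 and 0.08 in place of -1.40 and -0.62. The slide effect in these fits comes only from DKO, mouse 3 against mice 1 and 2. With median centring Txnrd1 in DKO was -0.04 in place of 0.24. Genes passing in basal forebrain were 8, against 0 without DKO mouse 3, 0 without Con mouse 3, 24 without Con mouse 2 and 18 with median centring. With the replicate number as a block 0 members passed in any genotype comparison. Over all genes 0 of 26102 passed in basal forebrain, 2 of 25798 in cortex and 34 of 26959 in the mean of both. With the mouse as a replicate block 17 and 7 members passed in the region comparisons, beside 13155 and 10397 genes.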
